A study of Mus musculus with 4 samples.

Results

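A set of 8 genes of Wnt signalling was followed on 4 arrays of mouse embryonic fibroblasts: Wnt5a, Rspo2, Sfrp1, Sfrp2, Dkk2, Dkk3, Fzd1 and Fzd2. The members were all probe sets that the platform annotation gives to those symbols, 15 of the 20380 probe sets with a single gene symbol, or 8 of 12393 genes. The genes were picked with the genotype and oxygen differences on these same arrays already known, so every value of theirs below is a description, with no test. The first 6 encode secreted proteins, while Fzd1 and Fzd2 encode membrane receptors.

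The arrays compared tri-CH1 cells in hypoxia, tri-CH1 cells in normoxia, wild-type cells in hypoxia and wild-type cells in normoxia, with 1 array per group and therefore no replicate error. The tri-CH1 cells carried a CH1-domain deletion on both p300 alleles and on a single CBP allele, so the other CBP allele was intact; the wild-type cells carried none. CH1 is a protein-binding domain of these related transcriptional coactivators. All cells were primary cultures from E14.5 (mid-gestation) embryos and spent 6 h at 0.1% oxygen (hypoxia) or 21% oxygen (normoxia), at 37 °C and 5% carbon dioxide, in medium with 10% fetal bovine serum that had been brought to that oxygen level beforehand. The labels do not say how many embryos gave the cells of an array, or whether the dishes of a genotype came from the same embryos.

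Wnt proteins are secreted lipid-modified ligands that bind Frizzled receptors on the cell surface. With the co-receptors Lrp5 and Lrp6 they stabilise β-catenin, and with Ror and Ryk receptors they act without it. R-spondins strengthen a Wnt signal by removing the ligases Rnf43 and Znrf3, which otherwise clear Frizzled from the membrane. Secreted frizzled-related proteins (Sfrp) carry a Frizzled-like domain and can bind Wnts outside the cell. Some Dickkopf proteins (Dkk), Dkk2 among them, act on Lrp5 and Lrp6. In embryonic mesenchyme, the source of these fibroblasts, several of these genes are active in a regional pattern, Wnt5a in the developing limb among them.

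Promoter sequence was held in the RefSeq table for Sfrp2, Dkk2 and Fzd1 only. The 250 bases before the transcription start are shown for Sfrp2, which stood apart by genotype, and for Fzd1, which stood apart by oxygen; both are 5′ to 3′ on the gene's strand in build GRCm38.p6. Sfrp2 is at chr3:83766071-83766320 on the plus strand and Fzd1 at chr5:4758217-4758466 on the minus strand.
Sfrp2: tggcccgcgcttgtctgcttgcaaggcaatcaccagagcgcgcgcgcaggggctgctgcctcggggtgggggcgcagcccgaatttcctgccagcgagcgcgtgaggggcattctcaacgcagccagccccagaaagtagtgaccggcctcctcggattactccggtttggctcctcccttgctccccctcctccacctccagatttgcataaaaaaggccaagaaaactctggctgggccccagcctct
Fzd1: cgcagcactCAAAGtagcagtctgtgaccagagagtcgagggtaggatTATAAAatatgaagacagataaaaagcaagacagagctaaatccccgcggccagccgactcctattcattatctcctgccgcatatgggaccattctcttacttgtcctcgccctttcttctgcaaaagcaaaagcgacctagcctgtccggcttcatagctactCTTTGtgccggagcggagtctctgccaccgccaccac
Capitals mark matches on either strand to 4 short motifs, none of which overlapped another here. The core of the hypoxia response element was searched as ACGTG. The core bound by TCF and LEF factors was searched as CAAAG. The TATA box was searched as TATAAA, and the core of the cyclic AMP response element as TGACG. The Fzd1 window held the TCF/LEF core at 241 and at 37 bases before the start and the TATA letters at 202 bases, and the Sfrp2 window held none of the 4. Of 32851 promoter windows of this length, 16.6% held the hypoxia response core, 48.6% the TCF/LEF core, 12.4% the TATA letters and 17.8% the cyclic AMP response core. The G and C share was 63.6% for Sfrp2 and 51.2% for Fzd1, against a median of 52.4% over all windows. These matches describe letters in the windows only.

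Signals are linear intensities that the authors scaled to a target of 500 on each array. The scale factor was 8.70 for tri-CH1 hypoxia, 10.3 for tri-CH1 normoxia, 6.73 for wild-type hypoxia and 3.46 for wild-type normoxia. Both tri-CH1 arrays were thus scaled up more than both wild-type arrays. The part of this in the genotype differences was not tested. The array background after scaling was 393 for tri-CH1 hypoxia, 343 for tri-CH1 normoxia, 246 for wild-type hypoxia and 139 for wild-type normoxia. The signals were already corrected for background, so these values are a guide to dim signals and not a detection limit. Wild-type normoxia was run on an array of a different lot from the rest, so lot and group cannot be told apart in comparisons that use it. All 10 fibroblast markers reached 500 on at least 1 array, and 9 of the 10 did on each array. Their summed signal was 139532 and 147623 in tri-CH1 hypoxia and normoxia, against 124868 and 131104 in wild-type hypoxia and normoxia. The epithelial markers Epcam and Cdh1, the endothelial markers Pecam1 and Tie1 and the muscle marker Myf5 were at or below 38.3 on every array. Other markers of those lists were brighter: Krt19 reached 3881, Krt18 588 and Krt8 502, Kdr ran from 302 to 390.5, and Acta1 reached 3494. In these mixed cultures, fewer cells that express a gene and less RNA per cell cannot be told apart.

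Comparisons counted a gene if it reached 500 on the brighter array, and called it at a difference of 2-fold or more. Signals under 200 were raised to 200 for folds, and a fold against such a signal is given as at least that size. Of the 15 probe sets, 10 reached 500 on at least 1 array and 3 on all 4, while 2 stayed under 200 throughout. By gene, 6 of the 8 reached 500 on an array: Rspo2, Sfrp2, Dkk3, Wnt5a, Fzd1 and Fzd2. Sfrp1 and Dkk2 did not reach it. The nearest probe sets inside the limit peaked at 523 (Fzd1) and 556 (Fzd2), and the nearest outside at 398 and 289.5 (both Sfrp1).

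**Figure D1:**
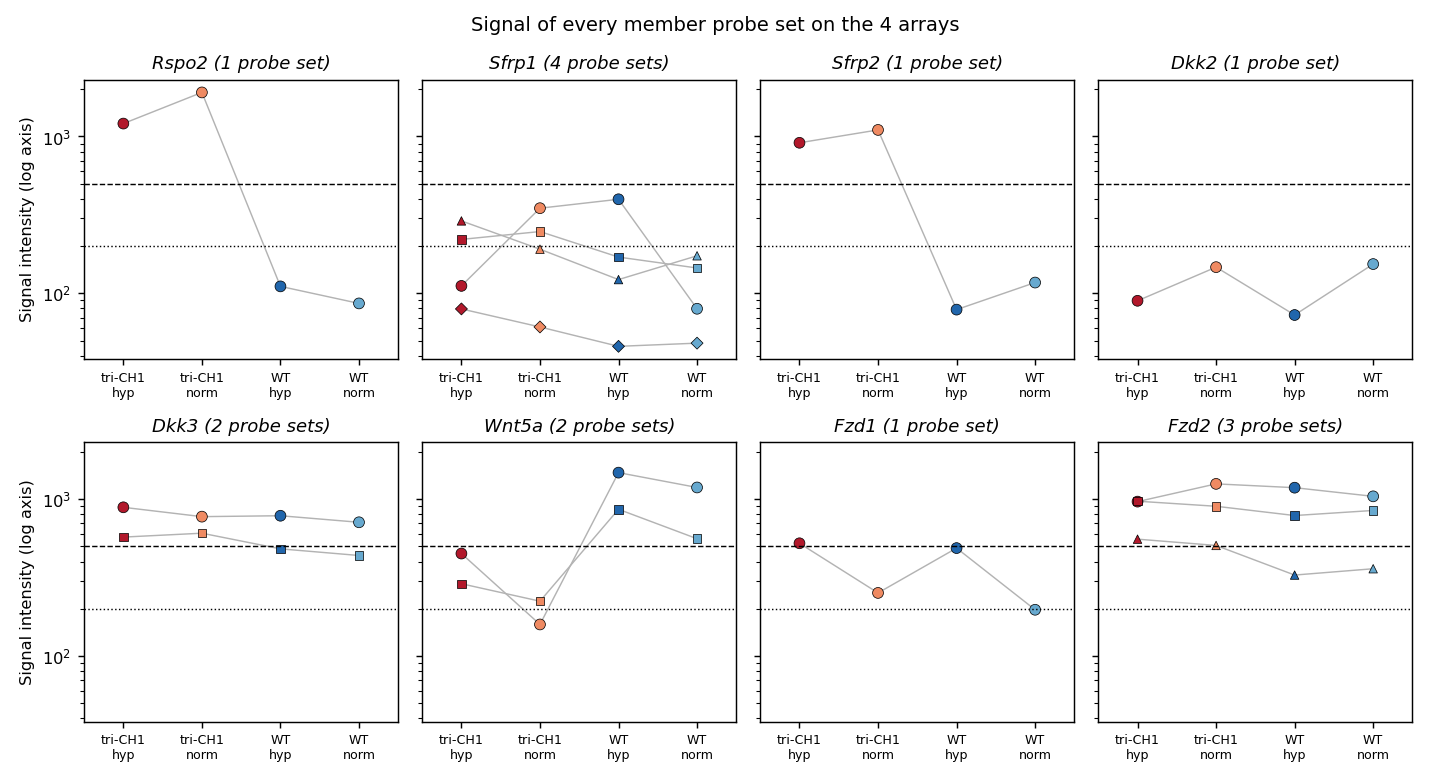
Signal intensity (log axis) of each of the 15 probe sets of the 8 genes on the 4 arrays, with a panel per gene, a marker shape per probe set, and lines joining the values of a probe set. The dashed line is 500 and the dotted line is 200; Rspo2 and Sfrp2 sit above 500 in tri-CH1 cells only, and both Wnt5a probe sets above 500 in wild-type cells only.

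Wnt5a, a ligand known mostly for β-catenin-independent signalling, was lower in tri-CH1 cells at both oxygen levels. Its brighter probe set, 1436791_at, had signals of 450 in tri-CH1 hypoxia and 159 in tri-CH1 normoxia, against 1477 in wild-type hypoxia and 1188 in wild-type normoxia. The other, 1448818_at, had 289 and 224 in tri-CH1 hypoxia and normoxia, against 862 and 560 in wild-type hypoxia and normoxia. Within each probe set both tri-CH1 signals were below both wild-type signals. The gene was picked with that difference known, so nothing is read from the order. In normoxia Wnt5a was at least 5.94-fold lower in tri-CH1 by the brighter probe set and 2.50-fold lower by the other. In hypoxia it was 3.28-fold and 2.98-fold lower by the same probe sets. The dimmer tri-CH1 signals lay below the scaled background of their arrays, so these sizes are loose: with a floor of 400 the bounds were 2.97-fold and 1.40-fold in normoxia, the second short of 2-fold, and the dimmer probe set was at least 2.15-fold lower in hypoxia.

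The oxygen differences of Wnt5a were smaller, and its probe sets disagreed on where. Hypoxia minus normoxia on the log2 scale was at least 1.17 in tri-CH1 and 0.31 in wild type for the brighter probe set, against 0.37 and 0.62 for the other. All 4 values were above 0, but in tri-CH1 neither probe set reached 500, so the gene was not counted there. The change in tri-CH1 less that in wild type was at least 0.86 by the brighter probe set (1.19 with no floor) and -0.25 by the other, so the order of the genotypes turned with the probe set. The tri-CH1 signals behind these values were 450 or less, so their order is not firm.

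Rspo2, an R-spondin gene, had the widest genotype gap of the 8 genes by its mean log2 difference over both oxygen levels. Its single probe set, 1455893_at, gave 1209 in tri-CH1 hypoxia and 1909 in tri-CH1 normoxia, against 111 in wild-type hypoxia and 86.2 in wild-type normoxia. Both tri-CH1 arrays were high and both wild-type arrays were under 200. Rspo2 was at least 9.55-fold higher in tri-CH1 in normoxia and at least 6.04-fold higher in hypoxia. With no floor the ratios were 22.2 and 10.9, over wild-type signals too low to fix their size. Within tri-CH1, hypoxia changed it by -0.66 on the log2 scale, under 2-fold, and in wild type both arrays were under the floor.

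Among the antagonists, Sfrp2 followed the same pattern as Rspo2. Sfrp2 encodes a secreted Frizzled-related protein made by many mesenchymal cells, and its single probe set, 1448201_at, gave 912 in tri-CH1 hypoxia and 1101 in tri-CH1 normoxia. In wild-type hypoxia it gave 78.7 and in wild-type normoxia 117. The tri-CH1 arrays were high and the wild-type arrays lay under the floor. The gene was at least 5.51-fold higher in tri-CH1 in normoxia and at least 4.56-fold higher in hypoxia, or 9.40-fold and 11.6-fold with no floor, over wild-type signals that are as low as those of Rspo2. Its hypoxia change in tri-CH1 was -0.27 on the log2 scale.

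Sfrp1, the close relative of Sfrp2, had 4 probe sets, and none reached 500. The probe set with the highest mean, 1438620_x_at, gave 111.5 in tri-CH1 hypoxia and 349 in tri-CH1 normoxia, against 398 in wild-type hypoxia and 79.7 in wild-type normoxia. The suffix _x_at marks probes that may match other transcripts. That pattern, high on 1 array of each genotype, was not seen in the others: 1448395_at gave 221 and 248 in tri-CH1 hypoxia and normoxia, against 170 and 145 in wild-type hypoxia and normoxia. Probe set 1460187_at gave 289.5 and 191 in tri-CH1, against 122 and 173.5 in wild type, in the same order of oxygen levels, and 1416594_at stayed between 45.9 and 79.5. These 3 probe sets lay near or below the array background after scaling, so no order of the genotypes is read from them. No call was made for Sfrp1.

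The Dickkopf genes showed no genotype difference of 2-fold. Dkk2, an inhibitor or modulator of Lrp5 and Lrp6, stayed under 200 on every array: 89.6 in tri-CH1 hypoxia and 147 in tri-CH1 normoxia, against 72.7 in wild-type hypoxia and 154 in wild-type normoxia. No order is read from signals at that level. Dkk3, a divergent member of the family, reached 500 on all 4 arrays. Its brighter probe set, 1417312_at, gave 887.5 in tri-CH1 hypoxia and 774 in tri-CH1 normoxia, against 784 in wild-type hypoxia and 712 in wild-type normoxia. The other, 1448669_at, gave 573 and 607 in tri-CH1 hypoxia and normoxia, against 482 and 437 in wild-type hypoxia and normoxia. Genotype differences of Dkk3 on the log2 scale were 0.12 and 0.47 in normoxia and 0.18 and 0.25 in hypoxia for the brighter and the other probe set. The size of these values compares with an SD of 0.32 between the probe sets of a gene in either genotype comparison, over 669 genes with 2 probe sets that both reached 500. That SD covers error between probe sets, not between cultures.

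Fzd1, a seven-pass Wnt receptor, was the only member called by oxygen. Its single probe set, 1422985_at, gave 523 in tri-CH1 hypoxia and 252.5 in tri-CH1 normoxia, and 488 in wild-type hypoxia and 197 in wild-type normoxia. Both hypoxia arrays lay above both normoxia arrays, an order from which nothing is read because the gene was picked with it known. The genotypes were close at each oxygen level. Fzd1 rose 2.07-fold with hypoxia in tri-CH1. In wild type the ratio was at least 2.44-fold, but the brighter array, at 488, was short of 500, so the gene was not counted there. The change in tri-CH1 less that in wild type was -0.23 on the log2 scale, within the SD of 0.37 that this difference had between probe sets of a gene. With a floor of 400 the log2 changes were 0.39 in tri-CH1 and 0.29 in wild type, so the 2-fold size rests on the normoxia signals of 252.5 and 197, on arrays whose scaled background was 343 and 139.

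Fzd2, the related receptor, was among the brighter members and had no 2-fold difference. Of its 3 probe sets, the brightest ranked the arrays differently from the other two. Probe set 1418532_at gave 965 in tri-CH1 hypoxia and 1252 in tri-CH1 normoxia, against 1184 in wild-type hypoxia and 1043 in wild-type normoxia. Probe set 1418533_s_at gave 971 and 901 in tri-CH1 hypoxia and normoxia, against 786.5 and 847 in wild-type hypoxia and normoxia. The dimmest, 1418534_at, gave 556 and 507 in tri-CH1, against 328 and 360 in wild type, again hypoxia before normoxia. The log2 genotype difference in hypoxia was -0.30, 0.30 and 0.76 for these probe sets and in normoxia 0.26, 0.09 and 0.49, so its sign in hypoxia depended on the probe set.

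By gene, taking the brightest probe set of each, tri-CH1 against wild type in normoxia counted 5 of the 8 members and called 3: Rspo2 and Sfrp2 higher and Wnt5a lower. Over all genes 6.65% of 4333 were called in that comparison, 3.16% higher and 3.48% lower; since the members were chosen on these differences, nothing is read from the excess. The deposited scaling gave 137 genes higher and 151 lower there, while scaling to the same median gave 81 and 262, with an all-gene median log2 difference of -0.20, against 0.03 as deposited. In hypoxia 6 members were counted and the same 3 were called in the same directions, against 7.06% of 4233 genes, 3.76% higher and 3.31% lower. These comparisons share no array, but the dishes of a genotype may have come from the same embryos. The members were picked with the genotype differences already known, so nothing is read from the repeat of the calls. The hypoxia comparison does not use the array of the other lot. The part of lot in the normoxia differences was not tested. Over the 3921 genes counted at both oxygen levels, 1.81% were higher at both and 2.04% lower at both.

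Ranked by their mean log2 difference over both oxygen levels among those 3921 genes, Rspo2 was in place 6 from the highest, with a mean of 2.93, and Sfrp2 in place 15, with 2.32. Wnt5a was in place 12 from the lowest, with -2.14. Dkk3 and Fzd2 stood near the middle, with means of 0.15 and -0.02. With a floor of 400, close to the highest scaled background, the differences in normoxia and hypoxia were 2.26 and 1.60 for Rspo2, 1.46 and 1.19 for Sfrp2 and -1.57 and -1.71 for Wnt5a. Apart from Wnt5a in hypoxia, each of these rests on a signal raised to 400 and is a least size.

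**Figure D2:**
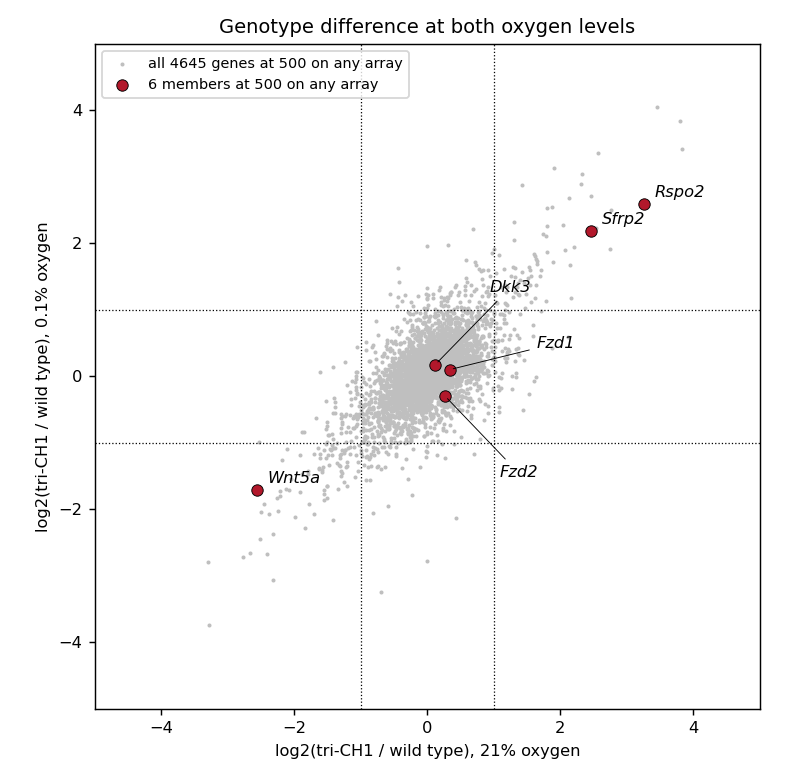
Log2 ratio of tri-CH1 to wild type at 21% oxygen (x axis) and at 0.1% oxygen (y axis) for 4645 genes that reached 500 on any array (grey) and the 6 members among them (red), with signals under 200 raised to 200 and dotted lines at 2-fold. Rspo2 at 3.26 and 2.60 and Sfrp2 at 2.46 and 2.19 lie at the upper right, Wnt5a at -2.57 and -1.71 at the lower left, and Dkk3, Fzd1 and Fzd2 near the centre.

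Some markers of cell type differed by genotype as well. Among the fibroblast markers, the surface protein gene Thy1 had 3274 and 3837 in tri-CH1 hypoxia and normoxia, against 12389 and 13148 in wild-type hypoxia and normoxia. It was called lower in tri-CH1 at both oxygen levels, and the matrix genes Col1a1 and Dcn were called higher in hypoxia; the other 7 of 10 were called in neither. The 6 muscle markers summed to 1113 and 1290 in tri-CH1 hypoxia and normoxia, against 3731 and 4016 in wild-type hypoxia and normoxia. Most of that gap was the skeletal actin gene Acta1, at 376 and 697.5 in tri-CH1, against 3151 and 3494 in wild type. The muscle regulators Myod1, Myog, Myf5 and Pax7 were at or below 144 on every array. The 5 measured cartilage and bone markers summed to 1585 and 1132 in tri-CH1 hypoxia and normoxia, against 991 and 765 in wild-type hypoxia and normoxia, and none of them reached 500. Over the 4 arrays, the summed signal ran from 462 to 573 for the endothelial list, from 1094 to 1530 for the blood list and from 1265 to 1515 for the neural list. Csf1r of the blood list ran from 625 to 701 and Nes of the neural list from 568 to 1027, so each reached 500 on all 4 arrays. The part of these cells or states in the differences of Rspo2, Sfrp2 and Wnt5a was not tested.

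Hypoxia against normoxia in tri-CH1 counted 5 of the 8 members and called 1, Fzd1, higher, against 4.18% of 4358 genes called in either direction and 3.19% called higher. In wild type 3 members were counted and 0 called, against 4.24% of 4125 genes. That background was 126 higher and 49 lower, or 116 and 72 with median scaling. Fzd1 was in place 129 of 4358 from the highest in tri-CH1. Of the 7 epithelial markers, Krt19 rose with hypoxia in both genotypes and Krt8 fell in tri-CH1; the list summed to 3571 in tri-CH1 hypoxia and 1542 in tri-CH1 normoxia, and to 5085 in wild-type hypoxia and 1277 in wild-type normoxia. Of the 10 fibroblast markers, Pdgfrb was called lower with hypoxia in wild type, at 517.5 in hypoxia against 1337 in normoxia, and none was called in tri-CH1. The part of these markers in the rise of Fzd1 was not tested. The change in tri-CH1 less that in wild type had a median of -0.25 on the log2 scale over the 6 members at 500, with values from -0.66 for Rspo2 to at least 0.86 for Wnt5a, and a median of 0.03 over all 4645 genes. The members' median was -0.10 with no floor, -0.15 with a floor of 100 and -0.42 over the 4 members that reach 1000. For Rspo2 and Sfrp2 the wild-type part of that difference is 0 because both wild-type signals were raised to the floor. Without it, the differences were -1.02 for Rspo2 and 0.30 for Sfrp2.

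**Figure D3:**
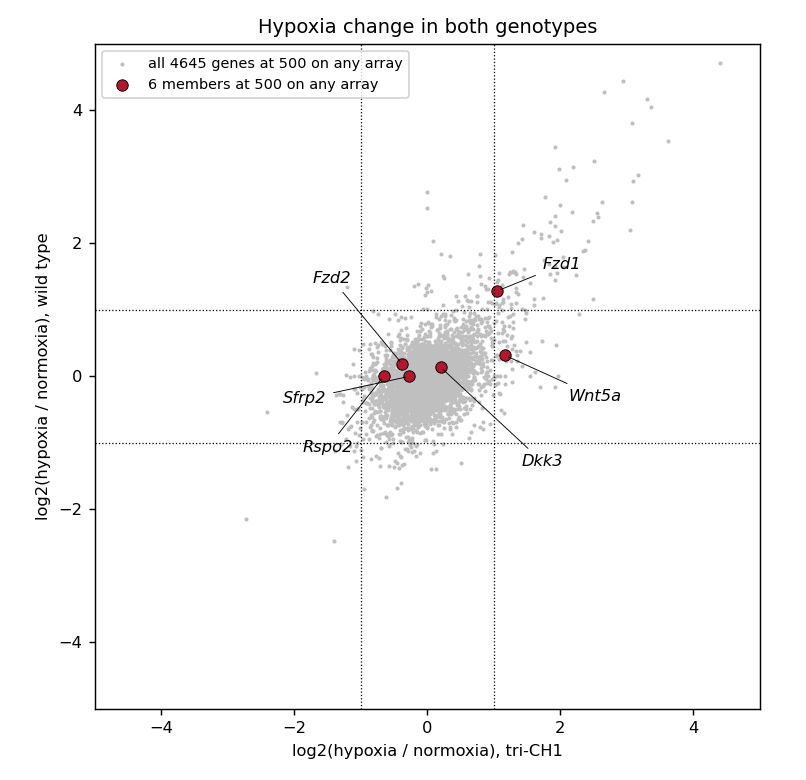
Log2 ratio of hypoxia to normoxia in tri-CH1 (x axis) and in wild type (y axis) for the same 4645 genes (grey) and 6 members (red), with dotted lines at 2-fold. Fzd1, at 1.05 and 1.29, is past 2-fold on both axes; Wnt5a, at 1.17 and 0.31, is past it in tri-CH1 only, where it was under 500, and the other 4 members lie inside both pairs of lines.

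The rest of the pathway was followed through 100 further genes in 6 lists, of which 88 were on the array. In these fibroblasts 23 of the 88 reached 500 on an array and 33 stayed under 200 on all 4. Among 19 other ligands and R-spondins only Wnt11, a ligand of β-catenin-independent signalling, reached 500, at 429 and 455.5 in tri-CH1 hypoxia and normoxia, against 589 and 420 in wild-type hypoxia and normoxia. Among the 10 other secreted antagonists only Sfrp4 did, at 546 and 611 in tri-CH1, against 593 and 510 in wild type. Neither had a 2-fold difference in any of the 4 comparisons. Wls, which carries Wnts to the cell surface, had signals between 2221 and 2916.

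Of the 20 other receptors and co-receptors, 5 reached 500 on an array: Fzd7, Lrp6, Ryk, Kremen1 and Gpc4. None was called by genotype. Fzd7, another Frizzled, came closest, with a log2 difference of -0.96 in normoxia and -0.43 in hypoxia, and was called lower in normoxia when the arrays were scaled to the same median. Kremen1, a Dickkopf co-receptor, had 286 and 188 in tri-CH1 hypoxia and normoxia, against 504 and 241 in wild-type hypoxia and normoxia. It rose 2.09-fold with hypoxia in wild type, a call lost with a floor of 400 or median scaling, and in tri-CH1 it had a log2 change of at least 0.52 and was not counted. The 8 intracellular genes at 500, among them Ctnnb1 (β-catenin, between 6142 and 6537 on the arrays), Gsk3a and Dvl1, held no call in any comparison, though Dvl1 was called lower with hypoxia in wild type after median scaling.

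Of 14 measured genes known as targets or feedback genes of the pathway, 7 reached 500, and 4 were called by genotype in normoxia, in both directions. Ccn5, a secreted matricellular protein gene, had 1918 and 2803 in tri-CH1 hypoxia and normoxia, against 407 and 483 in wild-type hypoxia and normoxia. It was 5.81-fold higher in tri-CH1 in normoxia and 4.71-fold higher in hypoxia. The cyclin gene Ccnd1 had 2387 and 2725 in tri-CH1 hypoxia and normoxia, against 989 and 1092 in wild-type hypoxia and normoxia. It was 2.49-fold and 2.41-fold higher in tri-CH1 in normoxia and hypoxia, and its dimmer probe sets gave log2 differences of 1.54 and 0.86 in normoxia and 2.30 and 1.40 in hypoxia.

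Ccn4, a relative of Ccn5 first described as a Wnt-induced gene, went the other way. It had 1697 and 1422 in tri-CH1 hypoxia and normoxia, against 3022 and 5162 in wild-type hypoxia and normoxia. In normoxia its tri-CH1 signal was 3.63-fold lower, and its log2 difference in hypoxia was -0.83, or -1.05 by its other probe set. Myc, a growth regulator, was 2.11-fold lower in tri-CH1 than in wild type at 21% oxygen, with 695 against 1465, and had 1022 and 1050.5 in tri-CH1 and wild-type hypoxia. It has no plain _at probe set, so that setting leaves it out. Axin2 and Lef1, the feedback genes most closely tied to β-catenin signalling, did not reach 500 on an array. In all, 4 of the 20 list genes counted were called by genotype in normoxia and 2 of 23 in hypoxia, against 6.65% and 7.06% of all genes counted. All of these genotype calls fell in the list of targets and feedback genes. The lists were chosen with earlier results of these data known, so nothing is read from the excess. Medians over the 23 genes at 500 were -0.03 in normoxia and -0.11 in hypoxia on the log2 scale, against 0.03 and 0.05 over all 4645 genes. With hypoxia 0 of 21 were called in tri-CH1 and 1 of 21 in wild type, against 4.18% and 4.24% of all genes counted. The medians were 0.08 in tri-CH1 and 0.09 in wild type, against -0.03 and -0.05 over all genes.

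**Figure D4:**
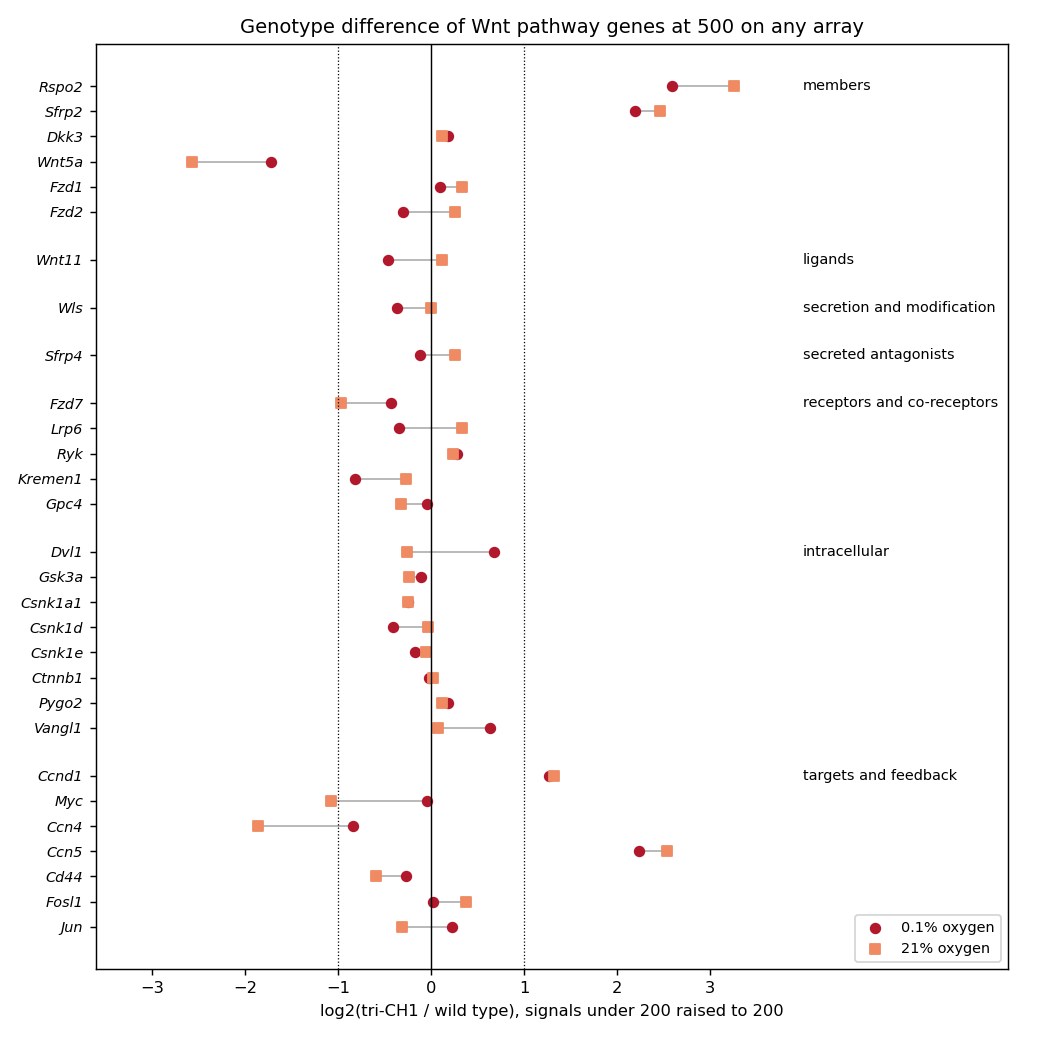
Log2 ratio of tri-CH1 to wild type at 0.1% oxygen (circles) and 21% oxygen (squares) for the 6 members and the 23 other pathway genes that reached 500 on any array, by list, with dotted lines at 2-fold. Rspo2, Sfrp2, Ccn5 and Ccnd1 lie past the right line at both oxygen levels and Wnt5a past the left line at both; Ccn4 and Myc pass the left line at 21% oxygen.

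The genes whose pattern over the 4 arrays lay nearest to that of Rspo2, by Euclidean distance of log2 signals centred on each gene's own mean among the 4645 genes at 500, were Cbr2, Ogn, Ccn5, Igfbp4 and Il1rn. The distances ran from 0.41 to 0.60 log2 units, and rest on 4 arrays. Cbr2, a carbonyl reductase gene, had 1136 and 1351 in tri-CH1 hypoxia and normoxia, against 88.3 and 69.2 in wild-type hypoxia and normoxia. Ogn, the proteoglycan osteoglycin, had 2672 and 2988 in tri-CH1, against 432 and 303 in wild type. Igfbp4, a binding protein of insulin-like growth factors, had 6191 and 6206 in tri-CH1, against 949 and 1129 in wild type, and Il1rn, the interleukin-1 receptor antagonist, 758 and 1336 against 49.4 and 171, hypoxia before normoxia in each pair. Because they were chosen as nearest to Rspo2, all 5 were higher on both tri-CH1 arrays than on both wild-type arrays. The other probe sets of Ogn, Igfbp4 and Il1rn had the same order of genotypes.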

How the data were processed

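Total RNA of 4 primary fibroblast cultures was measured on 4 Affymetrix arrays, 1 per group. Per the labels, the authors computed the deposited intensity values with the Affymetrix statistical algorithm, corrected for background and scaled to a target signal of 500; the software and its version are not given in the sources used here. Gene symbols were those of the platform annotation, and all 15 member probe sets matched the RefSeq gene table by gene number. Each gene took its probe set with the highest mean signal. Log2 ratios were computed from the deposited values after raising signals under 200 to 200, and calls needed 500 on the brighter array and 2-fold. The members and lists were chosen with earlier results of these data known; every member probe set was named, with the pathway genes that were called and the 5 genes nearest to the member of widest genotype gap. No test was run, since 1 array per group leaves no spread between samples, and the number of arrays limits the precision. The call rule was tested on simulated data built only from genes with a mean signal of 500 or more. That test says nothing about dimmer genes or about differences between cultures. Alternatives were other floors, other minimum signals, 3 normalizations and 2 ways of choosing probe sets. Python 3.11.15, numpy 2.4.6, pandas 2.3.3, matplotlib 3.10.9 and limma 3.58.1 in R 4.3.3 were used.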

Additional observations from a re-analysis of the deposited data

How the results depend on the processing

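The calls of Rspo2, Sfrp2 and Wnt5a by genotype were made at both oxygen levels under all 10 alternatives, except that Sfrp2 in hypoxia was too dim to count at a minimum of 1000. The alternatives were floors of 100 and 400 and none, minimum signals of 250 and 1000, cyclic loess, quantile normalization, scaling to the same median, the mean over probe sets, and plain _at probe sets. A floor of 100 and no floor can neither add nor remove a call, since a counted gene whose dimmer signal is under 200 is already past 2-fold. These 2 settings therefore say nothing on how steady the calls are. A minimum of 250 can add calls but cannot remove any. Rspo2 and Sfrp2 have a single probe set each, so both ways of choosing probe sets left their values unchanged. The hypoxia calls, which rest on single genes, were not as steady. In tri-CH1, members called were 0 with a floor of 400 or a minimum of 1000, and 2 (Wnt5a and Fzd1) with a minimum of 250. In wild type, members called were 1 (Fzd1) with a minimum of 250, quantile normalization or median scaling. Other pathway genes called with hypoxia in wild type were 0 with a floor of 400 or a minimum of 1000, and 2 (Kremen1 higher, Csnk1d lower) with plain _at probe sets; with median scaling the count stayed at 1, but the gene was Dvl1, lower, in place of Kremen1, higher. By genotype in normoxia, the 4 calls gained Ptk7, lower, with a minimum of 250 and Fzd7, lower, with median scaling, and lost Myc with plain _at probe sets. In hypoxia Ccnd1 and Ccn5 were called under all 10. Of 320 single log2 values of members recomputed, 51 moved by more than the SD between probe sets and no called value changed sign. No paired analysis was possible because each group has 1 array, and for the same reason no array could be left out. Signals under 200 to 400 have no firm order on these arrays, which limits Sfrp1, Dkk2, Kremen1, the normoxia side of Fzd1 and the oxygen differences and fold sizes of Wnt5a in tri-CH1.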
